A study of Mus musculus with 2 samples.

Results

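The Hox clusters were examined in 2 lists of ChIP-seq regions, 1 for each of the transcription factors Etv4 and Etv5. The members are the protein-coding genes whose symbol is Hoxa, Hoxb, Hoxc or Hoxd followed by a number. They numbered 39 of the 21938 protein-coding genes of the annotation and lay in 4 clusters. Both libraries came from EpRas cells, a derivative of the mouse mammary gland epithelial line EpH4 that carries oncogenic H-Ras. They were grown in 4% serum and fixed after 1.5 h with 1 ng/ml TGF-β3, so the lists share cell line, oncogene and treatment and differ in the antibody, which was rabbit polyclonal for Etv4 and mouse monoclonal for Etv5. There was 1 library per antibody, so nothing could be set against a spread between replicates and no difference was tested. Untreated cells, libraries without a specific antibody and RNA levels were not analysed here.

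Hox genes encode homeodomain transcription factors that give cells their position along the body axis and pattern the limbs, and several of them act in the mammary gland. Within a cluster the genes are arranged in paralogue groups, from group 1 at the 3′ end to group 13 at the 5′ end, and they tend to be activated in that order during development. In cells that do not use them the clusters are held silent by Polycomb complexes, which favour CpG-rich DNA. Etv4 and Etv5 belong to the PEA3 group of the ETS family, whose members bind DNA with a GGAA core and act downstream of Ras and MAP kinase signalling.

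Neither list contained a region inside any of the 4 Hox clusters. The Etv4 list held 13630 nuclear regions and the Etv5 list held 8289. A cluster was taken from the first to the last base of its Hox genes, on GRCm38, the assembly named by mm10. The Hoxa cluster (11 genes, chr6:52155590-52260880) held 0 Etv4 and 0 Etv5 regions, and so did the Hoxb cluster (10 genes, chr11:96194316-96368256), the Hoxc cluster (9 genes, chr15:102921103-103036852) and the Hoxd cluster (9 genes, chr2:74668310-74765142). Every number from 1 to the length of the list occurred once in each file, so no numbered region was absent from the files used here.

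The regions nearest to a cluster lay beyond the 3′ end of Hoxb. The centre of the stretch that both lists shared there is shown because it was the one place within 50 kb of a cluster where the lists overlapped. It spans chr11:96413858-96414157, on the plus strand, in intergenic sequence between Hoxb1 and Skap1. It holds no match to the ETS, AP-1 or RUNX letters searched for here.

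Hoxb1 3′ side, shared by Etv4 and Etv5: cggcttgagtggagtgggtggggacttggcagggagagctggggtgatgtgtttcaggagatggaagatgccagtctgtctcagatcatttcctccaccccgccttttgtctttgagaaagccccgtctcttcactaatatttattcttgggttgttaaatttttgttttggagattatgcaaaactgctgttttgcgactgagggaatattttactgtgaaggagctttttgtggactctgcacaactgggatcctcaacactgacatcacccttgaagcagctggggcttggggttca

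Sequence that matches an ETS site was nonetheless present in the clusters, and a few sites with and without a region are shown as examples of each. An ETS site was taken as CAGGAAGT or CCGGAAGT on either strand. The first 3 sequences below are the CCGGAAGT sites within 2 kb of a Hox transcript start, none of which lay in a region of either list. The other 8 sites within 2 kb of a transcript start were CAGGAAGT and also lay in no region, so the difference in the second base between the sequences shown comes from the choice of examples. The last 3 are sites inside Etv4 regions in the 500 kb flanks of the clusters. The site is in capitals and each sequence is written in the direction in which the site reads as above.

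Hoxa6, in an exon of Hoxa6, chr6:52208198-52208277, minus strand: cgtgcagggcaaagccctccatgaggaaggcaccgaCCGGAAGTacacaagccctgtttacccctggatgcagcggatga
Hoxb7, in an exon of Hoxb7, chr11:96287059-96287138, minus strand: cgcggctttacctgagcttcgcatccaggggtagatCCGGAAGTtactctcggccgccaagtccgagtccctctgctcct
Hoxd3, in an intron of Hoxd3, chr2:74741083-74741162, minus strand: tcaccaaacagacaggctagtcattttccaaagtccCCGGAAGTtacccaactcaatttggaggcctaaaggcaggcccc
Etv4 region in Gm11527, chr11:95859084-95859163, minus strand: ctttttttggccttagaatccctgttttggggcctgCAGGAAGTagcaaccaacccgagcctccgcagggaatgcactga
Etv4 region near Gip, chr11:96018096-96018175, plus strand: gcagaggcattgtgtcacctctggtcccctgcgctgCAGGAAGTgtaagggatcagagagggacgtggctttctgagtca
Etv4 region at Tarbp2, chr15:102517991-102518070, plus strand: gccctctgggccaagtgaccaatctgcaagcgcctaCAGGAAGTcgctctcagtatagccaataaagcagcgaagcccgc

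Whether the empty clusters stood out was then examined against the genome. The 4 clusters together measured 491.8 kb, or 0.0180% of the assembly. At the density of the whole assembly (5.00 Etv4 and 3.04 Etv5 regions per Mb), this length would hold 2.46 Etv4 and 1.50 Etv5 regions. At the density within 50 kb of protein-coding genes it would hold 3.35 and 1.997. A count of 0 allows up to 3 regions, or 6.10 regions per Mb, which is above both genome densities. A density lower than that of the whole assembly was therefore not detectable at this length of sequence. For Etv4 this turns on the reference, since the density near protein-coding genes, 6.80 per Mb, lies above the limit. The exact Poisson 95% interval of a count of 0 reaches 3.69 regions, which is above the 3.35 regions that this density would give. All intervals and limits given here cover counting error only, and the depth of the libraries is unknown because the files hold no read counts.

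Reads can be placed in almost all of the clusters. Reads of 36 bases are described for the mapping, and 2.49% of the sequences of that length in the clusters had another copy in the assembly, between 0.774% in Hoxa and 4.77% in Hoxb. The share was 17.3% in random windows of 500 bp and 2.13% in a sample of 1083 CpG-rich promoters. The clusters were also rich in CpG. They held 3.25 CpG-rich windows of 1 kb per 100 kb, compared with 0.244 in the assembly. None of the 16 CpG-rich windows in the clusters touched a region of either list (interval 0 to 20.6%, exact Clopper-Pearson, 95%). Of the 6647 such windows in the assembly, 19.1% touched an Etv4 region and 9.25% an Etv5 region. Both shares lie inside the interval, so the 16 windows do not show a difference. A count of 0 read as up to 3 gives a limit of 18.75%, just below the Etv4 share.

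**Figure D1:**
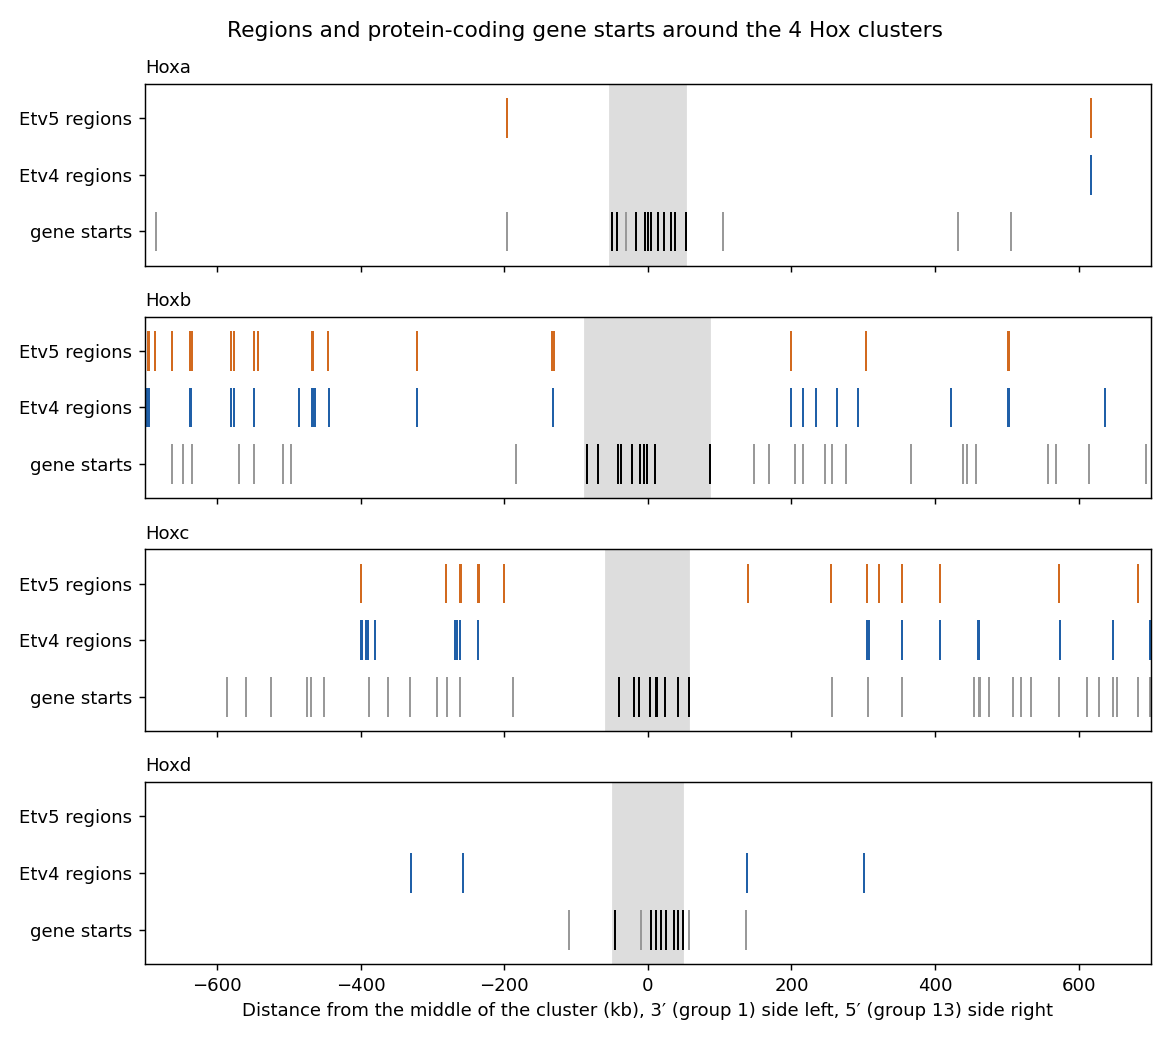
Positions of Etv4 regions (blue), Etv5 regions (orange), starts of Hox genes (black) and starts of other protein-coding genes (grey) around each Hox cluster (shaded), in kb from the middle of the cluster, with the 3′ side to the left. No region falls in the shading, and the flanks of Hoxb and Hoxc hold many more regions and genes than those of Hoxa and Hoxd.

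Within 50 kb of a cluster there were 1 Etv4 region and 2 Etv5 regions, all of them on the 3′ side of Hoxb. The Etv4 region (chr11:96413358-96414302, 945 bp, number 2142 of the list) began 45.1 kb from the end of Hoxb1. It overlapped an Etv5 region (chr11:96413713-96414336, 624 bp, number 968) over 590 bases. The second Etv5 region (chr11:96411089-96411462, 374 bp, number 4608) began 42.8 kb from the cluster and overlapped no Etv4 region. The overlap was thus 1 of 1 Etv4 region and 1 of 2 Etv5 regions, beside 37.8% and 63.1% of the nuclear regions in the whole lists. The criterion behind the numbers is not stated.

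The density of regions was also taken in bins of distance from the clusters. In the first 50 kb on either side it was 2.50 Etv4 regions per Mb (exact Poisson 95% interval 0.0633 to 13.9) and 5.00 Etv5 regions per Mb (0.606 to 18.1). Between 200 and 300 kb it was 15.0 Etv4 regions per Mb (7.75 to 26.2) and 10 Etv5 regions per Mb (4.32 to 19.7). From 50 to 100 kb it was 2.50 per Mb in both lists, from 100 to 200 kb it was 6.25 and 7.5 per Mb, from 300 to 400 kb it was 16.25 and 6.25 per Mb, and from 400 to 500 kb it was 8.75 and 7.5 per Mb. Starts of protein-coding genes did not follow the same order. They numbered 1 in the 0.4 Mb of the nearest bin, 6 in 0.4 Mb from 50 to 100 kb, and 8, 9, 8 and 16 in the 4 outer bins of 0.8 Mb. The part of gene number in the density was not tested.

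**Figure D2:**
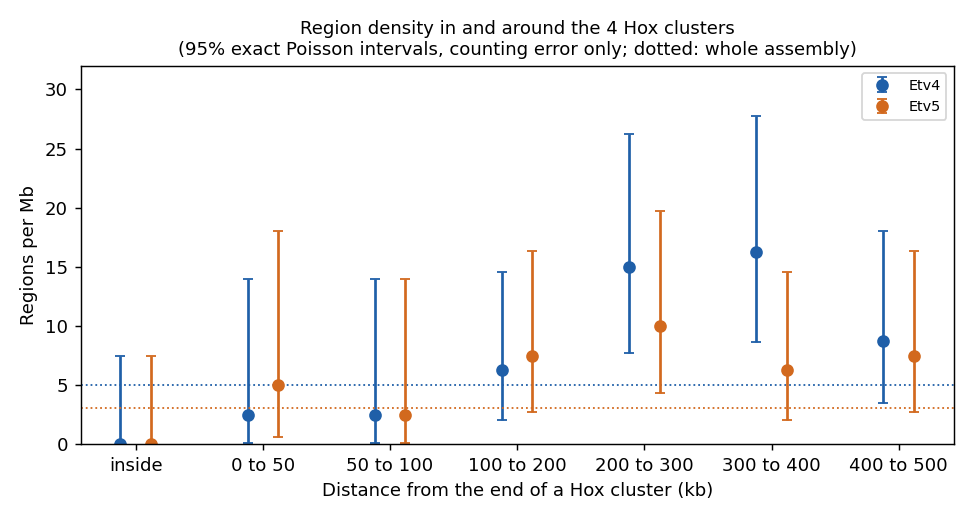
Etv4 (blue) and Etv5 (orange) regions per Mb inside the 4 Hox clusters and in bins of distance from their ends (kb), with exact Poisson 95% intervals of the counts and the density of the whole assembly as dotted lines. The intervals inside the clusters reach above both dotted lines, and the highest value lies at 300 to 400 kb for Etv4 and at 200 to 300 kb for Etv5.

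Most of the regions in the flanks belonged to Hoxb and Hoxc. Within 500 kb of Hoxb, the 3′ side held 10 Etv4 and 10 Etv5 regions and the 5′ side held 8 and 4. Hoxc had 10 and 7 on its 3′ side and 7 and 6 on its 5′ side. Hoxa had 1 Etv5 region on its 3′ side and no other region of either list, and Hoxd had 2 Etv4 regions on each side and no Etv5 region. Starts of protein-coding genes numbered 5 on the 3′ side and 13 on the 5′ side of Hoxb, 12 and 11 at Hoxc, 1 and 3 at Hoxa, and 1 and 2 at Hoxd, and the part of gene number in the count of regions was not tested.

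The clusters therefore sat inside long stretches without a region, measured between the nearest regions on either side. Free of Etv4 regions were 1355 kb around Hoxa, 332 kb around Hoxb, 540 kb around Hoxc and 394 kb around Hoxd. For Etv5 the stretches measured 812, 330, 338 and 1775 kb in the same order. Stretches of such length were not rare. Of all CpG-rich promoters, 9.20% lay in an Etv4-free stretch at least as long as that of Hoxa, and 38.3%, 25.5% and 33.8% in one at least as long as those of Hoxb, Hoxc and Hoxd. For Etv5 these shares were 26.7%, 55.02%, 54.3% and 10.4%.

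Other genes shared the stretches with the Hox genes. The Etv4-free stretch of Hoxa held 8 further protein-coding genes, among them Evx1, a homeobox gene next to Hoxa13, and Cbx3, which encodes the heterochromatin protein HP1γ. The Etv5-free stretch of Hoxd held 6, among them Evx2, the counterpart of Evx1, and Atf2, which encodes a bZIP transcription factor. The stretches of Hoxb held Calcoco2 and Ttll6 in both lists.

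Ends of the stretches within 500 kb of a cluster were placed in the annotation, and 4 of them are described here. On the 3′ side of Hoxa, an Etv5 region (chr6:52012638-52012945, number 8062 of 8297) lay 0.243 kb from a start of Skap2, 143 kb from the cluster. On the 5′ side of Hoxd, an Etv4 region (chr2:74578753-74579286, number 5845) lay 0.0720 kb from a start of Lnpk, which encodes an endoplasmic reticulum protein, 89.0 kb from Hoxd13. On the 5′ side of Hoxc, an Etv5 region (chr15:102839317-102840260, 944 bp, number 866) lay in intergenic sequence 80.8 kb from Hoxc13 and overlapped no Etv4 region. On the 5′ side of Hoxb, regions of both lists ended 113 kb from Hoxb13 (Etv4 number 47, Etv5 number 85), and 16.4% and 16.1% of their stretches of 36 bases had another copy in the assembly. These shares are no higher than the 17.3% of random windows but above the 2.13% of CpG-rich promoters. They were the highest among the regions within 500 kb of a cluster. The sequence of the pair resembled, on reading, a copy of a ribosomal RNA gene, which was not tested. The pair bounded the Hoxb stretches and gave the distance of Hoxb13. Without it, a choice made after seeing the data, the stretch measured 348 kb for Etv4 and 434 kb for Etv5, and the nearest region on this side lay 129 and 217 kb from the cluster.

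The distance from each Hox gene to the nearest region was then measured between region midpoint and the closest of the transcript starts of the gene. For Etv4 it was shortest at Hoxb1, with 47.6 kb, and the median over the 39 genes was 184 kb. For Etv5 it ranged from 45.0 kb at Hoxb1 to 880 kb at Hoxd1, with a median of 152 kb. The medians over all protein-coding genes were 51.1 and 84.1 kb. A distance at least as great as the Hox median was found for 24.6% of all protein-coding genes with Etv4 and for 36.4% with Etv5, and for 12.9% and 26.0% of CpG-rich promoters.

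Along each cluster the distance followed the side on which the nearest region lay, since the clusters themselves were empty. In Hoxa the Etv5 distance went from 152 kb at Hoxa2 to 248 kb at Hoxa13. In Hoxb it went from 45.0 kb at Hoxb1 to 140 kb at Hoxb9 and was 113 kb at Hoxb13, whose nearest region lay on the other side (217 kb without that pair of regions). In Hoxc the Etv5 distance was 144 kb at Hoxc4, 158 kb at Hoxc6 and 81.3 kb at Hoxc13. In Hoxd the Etv4 distance went from 184 kb at Hoxd1 to 89.3 kb at Hoxd13, while the Etv5 distance stayed between 800 and 880 kb. Hox genes of 1 cluster share their nearest regions, so the 39 distances are not independent.

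**Figure D3:**
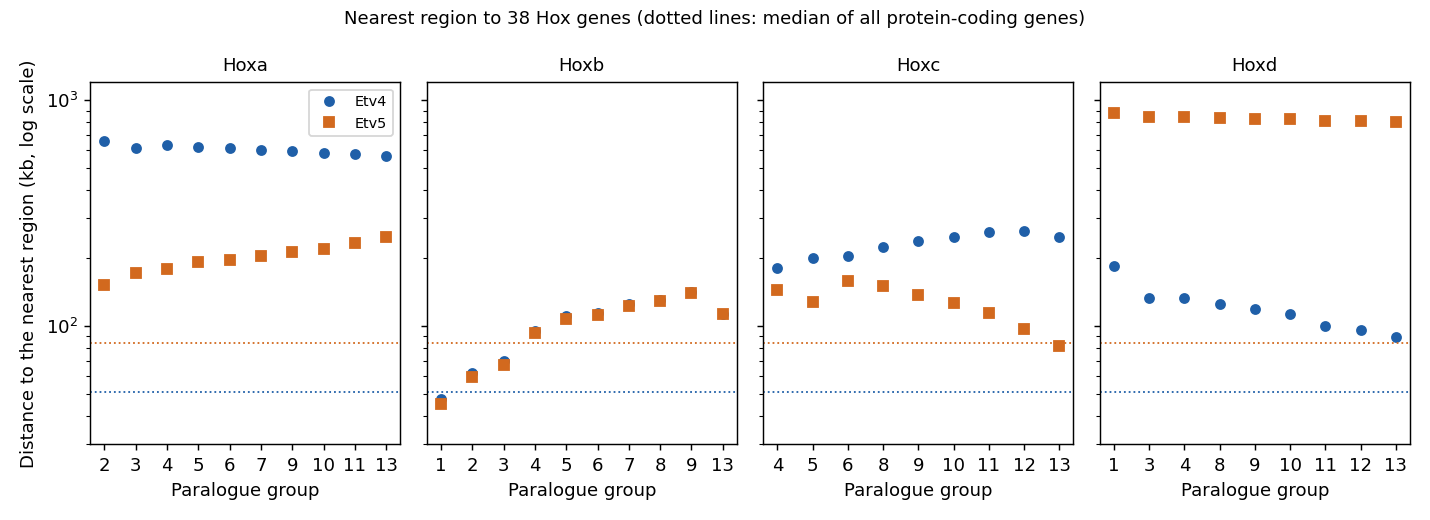
Distance from 38 Hox genes to the nearest Etv4 region (blue circles) and Etv5 region (orange squares) in kb on a log axis, ordered by paralogue group in each cluster, with the median of all protein-coding genes as dotted lines. Hoxb1 lies below the dotted line of each antibody, and every other Hox gene shown lies above the Etv4 line. For Etv5, Hoxb2 (59.6 kb), Hoxb3 (67.5 kb) and Hoxc13 (81.3 kb) also lie below the line at 84.1 kb.

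No Hox gene had a region within 2 kb of a transcript start. This was 0 of 39 genes for either antibody (interval 0 to 9.03%), and a count of 0 allows a share of up to 7.69%. Of all protein-coding genes, 17.9% had an Etv4 region and 10.6% an Etv5 region at this distance. Within 50 kb, Hoxb1 alone had a region of either list, or 1 of 39 genes (2.56%, interval 0.0649 to 13.5%), against 49.6% of all protein-coding genes for Etv4 and 39.2% for Etv5. The intervals treat the genes as independent. They are neighbours in 4 clusters, so the intervals are too narrow.

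Promoters of similar composition were considered next, since CpG-rich promoters had a region more often than protein-coding genes as a whole. The promoter was the 1 kb around the 5′ end of the gene. Of the Hox promoters, 9 were CpG-rich, with a GC content above 55% and a ratio of observed to expected CpG above 0.75, and 24 were moderately CpG-rich (above 50% and 0.6). The median Hox promoter had a GC content of 57.5% and a ratio of 0.679. The least CpG-rich were found in Hoxb, where 3 of 10 promoters were moderately CpG-rich, compared with 9 of 11 in Hoxa, 5 of 9 in Hoxc and 7 of 9 in Hoxd.

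Promoters of these classes often had a region. Among the 5413 CpG-rich promoters, 30.9% had an Etv4 region and 17.4% an Etv5 region within 2 kb. Among the 9733 moderately CpG-rich promoters, the shares were 29.5% and 16.7%. When the share was taken from promoters of the same class of GC content (steps of 5 percentage points) and CpG ratio (steps of 0.1), 39 promoters composed like those of the Hox genes would include 9.03 with an Etv4 region and 5.16 with an Etv5 region, against 0 observed for each. At 50 kb the class shares gave 22.2 and 17.2 genes, against 1 observed for each. These sums count every promoter on its own. The 39 promoters lie in 4 clusters, and some of them overlap, such as those of Hoxd3 and Hoxd4. At 50 kb neighbouring genes also share their flanks. The promoters are therefore not independent, and the differences were not tested.

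**Figure D4:**
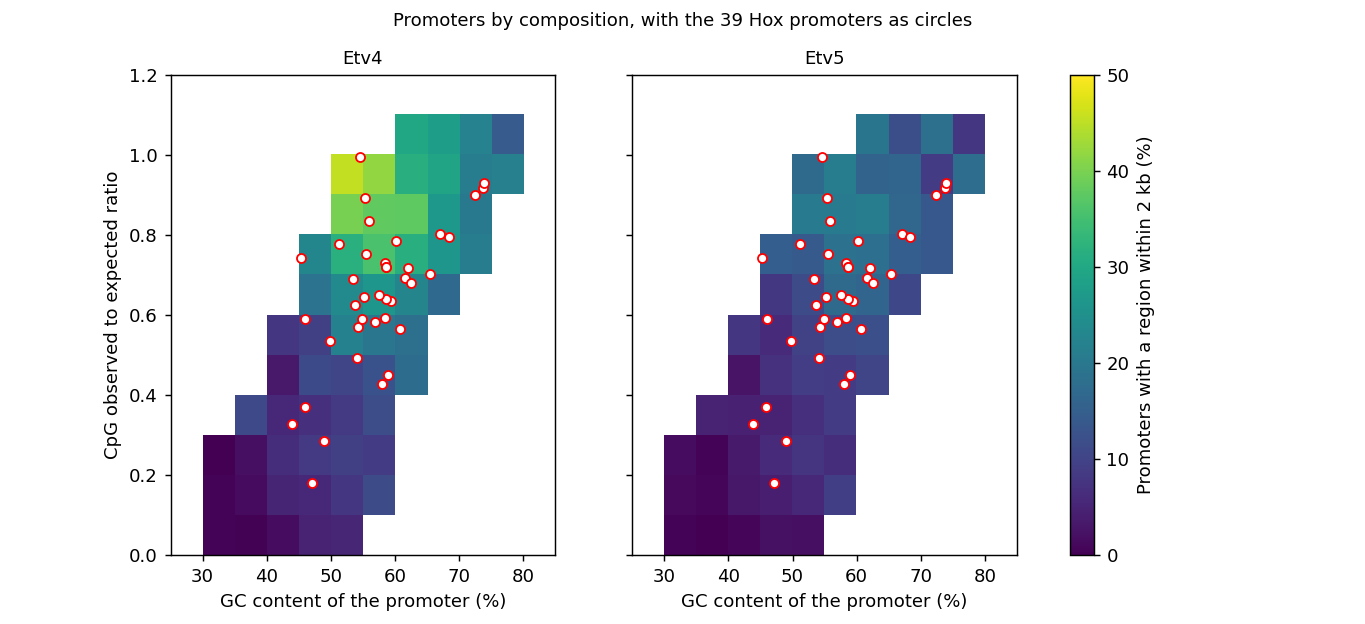
Share of protein-coding promoters with an Etv4 region (left) or an Etv5 region (right) within 2 kb, by GC content (%) and ratio of observed to expected CpG, for classes of at least 50 promoters other than Hox promoters, with the 39 Hox promoters as circles. The circles lie in classes with shares from 5.58% to 45.3% for Etv4 and from 4.28% to 20.5% for Etv5. The mean over the 39 circles is 23.2% and 13.2%, and none of the circles has a region.

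A further comparison took account of the crowding of Hox promoters. The assembly was divided into windows of 100 kb, and 132 of them held at least 5 moderately CpG-rich promoters. Of these, 92.4% held an Etv4 region and 73.5% an Etv5 region. Of the 132 windows, 2 lay in Hox clusters and neither held a region of either list. With 2 windows the share in the clusters is poorly determined.

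The ETS sites in the clusters numbered 35. Hoxb held 20, Hoxd 9, Hoxa 3 and Hoxc 3. Their density was 0.0712 per kb, beside 0.0754 per kb in the assembly. The site was CCGGAAGT in 9 cases and CAGGAAGT in 26, and 11 sites lay within 2 kb of a transcript start of a protein-coding gene. None lay in a region, which allows a share of up to 8.57% (interval 0 to 10.003%). In the whole assembly, 0.863% of ETS sites lay in Etv4 regions and 0.372% in Etv5 regions, so 0 of 35 is not informative for sites in general. In CpG-rich promoters, 25.9% of 897 ETS sites lay in Etv4 regions and 9.14% in Etv5 regions. These shares compare with sites in Hox promoters rather than with the 35 sites of the whole clusters. Hox promoters held 2 ETS sites, and 0 of 2 (interval 0 to 84.2%) is not informative either.

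Only Hoxa6 and Hoxb7 had an ETS site in the 1 kb promoter, the sites printed above, at 0.488 and 0.472 kb from a start and in an exon, outside annotated untranslated sequence. Of all protein-coding promoters, 14.2% held an ETS site. In the shorter RefSeq promoters of GRCm38 (250 bases before to 50 after the start), 22 of the 39 Hox genes could be matched and none of their promoters held an ETS site, beside 7.07% of all entries. The uncovered Hoxd3 site lay 1.50 kb from the nearest start.

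Sites for 2 other families of factors were searched in the same way. AP-1 sites (TGACTCA or TGAGTCA, each the reverse complement of the other) numbered 42 in the clusters, or 0.0854 per kb, beside 0.164 per kb in the assembly and 0.0760 per kb in CpG-rich promoters. RUNX sites (TGTGGTT or TGTGGTC, either strand) numbered 150, or 0.305 per kb, beside 0.382 per kb in the assembly. None of these lay in a region of either list, which for RUNX sites allows a share of up to 2%. In the whole assembly, 1.61% of AP-1 sites lay in Etv4 regions and 0.905% in Etv5 regions, and the shares of RUNX sites were 0.482% and 0.253%, so these counts of 0 are not informative either. Within 1 kb promoters, Hoxd11 held the only AP-1 site and 6 Hox promoters held a RUNX site, with shares of 12.1% and 24.8% among all promoters.

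The 3 regions within 50 kb of Hoxb held no ETS and no AP-1 site in 500 bp around the midpoint. A RUNX site was found in the Etv4 region. The search was extended to the 39 Etv4 and 28 Etv5 regions within 500 kb of a cluster. An ETS site was found in 3 of the Etv4 regions and in 0 of the Etv5 regions, beside 10.2% and 7.93% of the whole lists. An AP-1 site was found in 15 and 7 of them, beside 37.4% and 35.8%. The Etv5 list overlapped 16 of the 39 Etv4 regions (41.0%, interval 25.6 to 57.9%). The Etv4 list overlapped 18 of the 28 Etv5 regions (64.3%, interval 44.1 to 81.4%).

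The non-coding genes of the clusters had no region within the clusters either. The annotation placed 43 such genes inside the clusters. Hotair, a long non-coding RNA of the Hoxc cluster, lay 267 kb from the nearest Etv4 region and 108 kb from the nearest Etv5 region. Of the microRNA genes, Mir10a in Hoxb was 96.7 and 94.1 kb away, and Mir10b in Hoxd was 147 and 858 kb away.

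Genes that act with or on the Hox genes were counted in the same way. Homeodomain partners of Hox proteins (Pbx, Meis and Pknox) had an Etv4 region within 2 kb of a start in 1 of 9 genes, Pbx4 (1.05 kb), and an Etv5 region in 0 of 9. Genes of Polycomb complexes had one in 3 of 17 for Etv4 (17.6%) and 2 of 17 for Etv5 (11.8%), close to the 17.9% and 10.6% of all protein-coding genes. For the partners, 1 of 9 was 11.1%, and the intervals of both lists include the shares of all genes. Within 50 kb, 15 of 17 Polycomb genes had an Etv4 region (88.2%, interval 63.6 to 98.5%), above the 49.6% of all genes. Of the 17 promoters, 12 were CpG-rich and 14 moderately CpG-rich. Within 50 kb, 64.2% of all CpG-rich promoters had an Etv4 region, a share inside that interval. The 62.8% of moderately CpG-rich promoters lay just below it. An Etv5 region lay within 50 kb of 6 Polycomb genes (35.3%, interval 14.2 to 61.7%), beside 39.2% of all genes. Of the partners, 4 of 9 had an Etv4 region and 2 of 9 an Etv5 region within 50 kb. Pcgf2, a component of Polycomb repressive complex 1, had an Etv4 region at 0.302 kb, and Ezh2, the histone H3 lysine 27 methyltransferase, at 0.886 kb. Phc2, another component of that complex, had regions of both lists at 1.96 and 1.80 kb.

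Activators and upstream inducers of Hox genes had an Etv4 region within 2 kb in 5 of 11 genes and an Etv5 region in 2 of 11. The Etv4 region lay 0.0800 kb from a start of Men1, which encodes menin, 0.0830 kb from Rara, which encodes a retinoic acid receptor, 0.292 kb from Kmt2a, which encodes a histone H3 lysine 4 methyltransferase, and 0.351 kb from Rarg. The list is short, and 4 of the 11 promoters were CpG-rich. Its share for Etv4 was 45.5% (interval 16.7 to 76.6%) beside 17.9% of all protein-coding genes, and for Etv5 18.2% (interval 2.28 to 51.8%) beside 10.6%, so both intervals include the share of all genes. Within 50 kb, 7 of the 11 had a region of each list (63.6%, interval 30.8 to 89.1%). The shares of all protein-coding genes, 49.6% for Etv4 and 39.2% for Etv5, lie inside this interval.

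Homeobox genes outside the Hox clusters were the closest comparison by function. Of 54 such genes, 44 had a moderately CpG-rich promoter. An Etv4 region lay within 2 kb in 5 of them (9.26%, interval 3.08 to 20.3%) and an Etv5 region in 2 (3.70%, interval 0.452 to 12.7%). Both shares lay below the 17.9% and 10.6% of all protein-coding genes, with intervals that include them. Both intervals ended below the 29.5% and 16.7% of moderately CpG-rich promoters, the class to which most of these genes belong, so shares below that class were also found outside the Hox genes. The intervals also overlap those of the Hox genes, and the difference was not tested. Among the genes with an Etv4 region were Lhx6 (0.120 kb), Msx2 (0.169 kb), Irx3 (0.320 kb) and Irx2 (0.352 kb). Within 50 kb, 19 (35.2%, interval 22.7 to 49.4%) and 13 (24.1%, interval 13.5 to 37.6%) of the 54 had a region, against 1 of 39 Hox genes and 49.6% and 39.2% of all protein-coding genes. Both intervals ended just below the shares of all genes. Neither overlapped the interval of the Hox genes (0.0649 to 13.5%), although for Etv5 the intervals nearly met, and the difference was not tested. The 54 include Evx1 and Evx2, which lie in the region-free stretches of Hoxa and Hoxd, so the list is not fully separate from the clusters. Evx2, which adjoins Hoxd13, was 80.4 kb from the nearest Etv4 region.

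**Figure D5:**
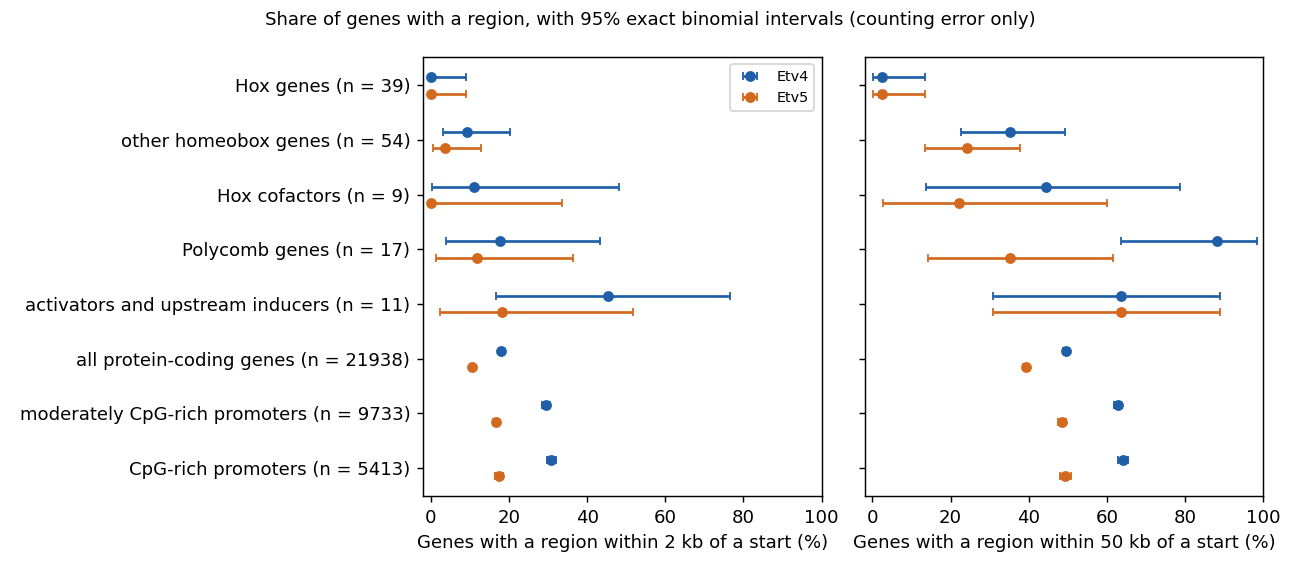
Share of genes (%) with an Etv4 region (blue) or an Etv5 region (orange) within 2 kb (left) or 50 kb (right) of a transcript start, for the Hox genes and the other lists, with exact binomial 95% intervals. The Hox genes lie at 0 of 39 on the left and 1 of 39 on the right, and their intervals on the left overlap those of the other homeobox genes. On the right the intervals do not overlap, although for Etv5 they nearly meet.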

How the data were processed

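ChIP-seq with antibodies to Etv4 and Etv5 was carried out by the authors on 1 library each. Per the study's methods, regions were called in the one-sample mode of CisGenome (window of 300 bp, p threshold of 0.1) without an input library, so local accessibility or copy number is not removed from the lists. For mapping, those methods point to the accessibility assay, in which 36 bp of each read were aligned to mm10 by bowtie2. The deposited BED files give positions in base pairs, and the deposited score is 1000 for every region. No read counts are given and depth is unknown. Lengths are uncertain by 1 bp, since ends may be inclusive. Coordinates are printed counting from 1.

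Libraries were grouped by the antibody in the labels. Genes came from GENCODE M21 and sequence from GRCm38. Regions were counted with at least 1 bp inside a cluster. Shares have exact binomial and densities exact Poisson 95% intervals, and a count of 0 was read as up to 3. No test was run. Genes were named where a region lay within 5 kb of a start (none), and otherwise by their list (up to 4 of each), by their place at the ends of a cluster or of a stretch, or as values seen. The members and lists were chosen with earlier results of these data known. The values of 1 gene are not reported here. Mitochondrial and unplaced regions were left out. Functions were tested on simulated data. Scripts ran in Python 3.11.15 with scipy 1.17.1, pandas 2.3.3, matplotlib 3.10.9, numpy 2.4.6 and numba 0.67.0.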

Additional observations from a re-analysis of the deposited data

How the results depend on the processing

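No paired analysis was possible because there was a single library for each of Etv4 and Etv5, and none could be left out. Of 94 values recomputed under other settings, 58 stayed and 36 moved. Counts and distances were read as moved beyond 1.5 times the value, and shares and numbers at a given density when outside their 95% interval, which is narrow. The counts of 0 regions in the clusters and 0 Hox genes within 2 kb stayed at 0 with the longer or first 50% of each list, merging within 300 bp, equal numbers of the longest regions, midpoints, distances of 1 and 5 kb and gene 5′ ends. These outcomes were fixed in advance. A part of a list or a narrower rule cannot raise a count of 0, and the nearest region began 42.8 kb from a cluster. They are among the 58 values that stayed and do not measure stability. A distance of 50 kb gave 1 Hox gene per list.

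Regions around the clusters numbered 0 and 0 (Etv4 and Etv5) within 10 kb, 2 and 3 within 100 kb, and 39 and 28 within 500 kb. Within 50 kb, the longer 50% and the first 50% of the Etv5 list each held 1 region. A RUNX site appeared in 1 Etv5 region when the whole region was searched. The number of regions that the clusters would hold was 1.23 and 0.748 with the longer 50%, 1.23 and 0.748 with the first 50%, 2.34 and 1.455 after merging, 2.68 and 1.63 on autosomes, 3.35 and 1.997 near protein-coding genes, and 1.496 for Etv4 with equal numbers. Of the 16 CpG-rich windows in the clusters, 3.05 would touch an Etv4 region at the share of the assembly.

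The share of CpG-rich promoters with a region was 29.5% for Etv4 with the looser definition, 22.65% and 13.3% inside the range of the Hox promoters, 28.8% and 15.7% for a distance of 1 kb, 34.9% and 20.8% for 5 kb, and 15.2% and 6.95% with the longer 50%. Without the regions that bound the Hoxb stretch on its 5′ side, the Etv5 distance of Hoxb13 was 217 kb. Added after seeing the data were this setting, classes of GC content and CpG ratio, with 23.2% and 13.2%, and windows of 100 kb, with 92.4% and 73.5%. Depth was unknown, and a list from a deeper library could hold weaker regions.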

Other observations

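On the 3′ side of Hoxc, from 177 kb outward, starts of Cbx5 and Hnrnpa1 had regions of both lists. Cbx5 encodes the heterochromatin protein HP1α and Hnrnpa1 an RNA-binding protein of splicing. The Etv4 region at Cbx5 measured 1669 bp (number 3026) and overlapped 2 Etv5 regions. The flank beyond that held 6 Etv4 regions whose nearest protein-coding gene was Itga5, the α5 chain of the fibronectin receptor, between 322 and 341 kb from Hoxc. One of them, 11.8 kb from a start of Itga5, overlapped an Etv5 region of 1226 bp (number 353 of 8297).

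On the 3′ side of Hoxb, 5 Etv4 regions had their midpoint in introns of Skap1, which encodes an adaptor of T cell receptor signalling, and 4 of them overlapped an Etv5 region. The longest of these Etv4 regions measured 1322 bp (number 721 of 13636). These regions were named after their values were seen.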
